A study of Homo sapiens with 9 samples.

Results

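The genes described here are long non-coding RNAs (lncRNAs) that carry the name of another gene, followed by -AS for antisense or -DT for divergent transcript. They were chosen by biotype (lncRNA), by that ending of the symbol and by a sum of at least 180 counts over the 9 libraries, so the level of a gene decided whether it entered and low levels are absent by choice. Of 2465 such lncRNAs listed, 314 had the minimum, 221 of them antisense and 93 divergent, out of 35036 lncRNAs and 78986 genes in the table. Another 653 of the 2465 had 0 counts in every library. Just inside the minimum lay DMTF1-AS1 with a sum of 181 counts and SAP30-DT with 182, and just outside it DDX19A-DT with 179.5 and USP34-DT with 178.33. All 314 passed the filter on low counts in each of the 3 comparisons, so none was lost between the choice and the tests.

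RNA was measured in HEK293T cells, a human embryonic kidney line, that had been infected with lentivirus to express wild-type (WT), G245S or R273H p53 and kept in puromycin, with 3 biological replicates of each. HEK293T cells hold the SV40 large T antigen and their own p53 gene, so the WT cells are cells with added WT p53 and no line lacks p53. The labels give the line as HEK 293 and the genotype as overexpression of each form. The methods describe selection with puromycin and no cloning step, and the promoter of the viral construct is not given in the sources used here. R273H and G245S are recurrent cancer mutations of the p53 DNA-binding domain, so the question addressed to the data was whether antisense and divergent lncRNAs differed between cells with either mutant and cells with WT p53, and whether they moved with the gene they are named after.

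An antisense lncRNA is transcribed from the strand opposite to a gene and may overlap its exons, its introns or its start. A divergent transcript starts close to the start of a gene and runs away from it, a layout that is common at CpG-rich mammalian promoters, where initiation occurs in both directions. Several such RNAs are known to act on the chromatin, splicing or stability of the neighbouring mRNA, and many have no known function. p53 activates genes by binding to response elements in their promoters and introns, and mutants of its DNA-binding domain lose much of this binding.

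Libraries held between 7325514 and 9667306 counts, apart from WT replicate 3 with 1486315 counts, which was left out of the fits for its depth, so that 2 WT, 3 G245S and 3 R273H libraries were compared. Values are in CPM, which are counts divided by the TMM-adjusted total of their library, and a floor of 3 counts was 0.307 to 0.412 CPM in the 8 libraries fitted and 2.11 CPM in WT replicate 3, for counting error only. The 314 lncRNAs took between 0.269% and 0.291% of the counts of a fitted library and 0.308% of WT replicate 3. WT replicate 3 stood apart in other ways, with KRT19 at 33.7 CPM against at most 1.37 CPM and KRT8 at 54.8 CPM against at most 12.2 CPM in the others, and the plot of levels by library shows it as an open circle. MDM2, an E3 ligase gene that p53 activates, was at 79.6 and 85.0 CPM in WT and between 42.1 and 47.5 CPM in the 6 mutant libraries, which matches the labels. Of the HEK293 markers, CDH2 was at 76.1 to 84.4 CPM and PAX2 at 2.19 to 4.90 CPM in the fitted libraries, PAX8 at no more than 0.231 CPM, and CD3E of T cells was at 0 in all 9.

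The position of each lncRNA was taken from the GRCh38 coordinates of the table, where 309 of the 314 names led to a protein-coding gene. Divergent here means opposite strands with starts within 1000 bases of each other. By that definition 146 pairs (46.5%) were divergent, and 162 were antisense pairs with overlapping spans and starts farther apart. The endings of the names largely matched the positions: 80 of the 93 -DT genes were divergent, and 66 of the 221 -AS genes were too. The median distance between starts was 201 bases for -DT and 7765 bases for -AS genes. Of the overlapping antisense lncRNAs, 80 started inside the coding gene and 82 past its end. FAM131B-AS2 was the only member on the strand of its named gene, 4 HOX cluster lncRNAs (HOXA-AS2, HOXB-AS3, HOXC-AS1 and HOXD-AS2) are named for a cluster rather than a gene, and ST20-AS1 is named for a gene listed as lncRNA. Exonic bases were shared on opposite strands by 228 pairs.

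RefSeq starts, which pick 1 transcript per gene, gave a tighter picture for 234 pairs. Among them 148 lay within 1000 bases, 70 of 74 -DT pairs and 78 of 160 -AS pairs. The lncRNA was upstream of the coding start in 66 of these -DT pairs and 36 of these -AS pairs. Over all 160 -AS pairs the median was 919 bases downstream. The median over those 70 -DT pairs was 152 bases upstream (−152). The plot of start distances shows that peak.

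**Figure D1:**
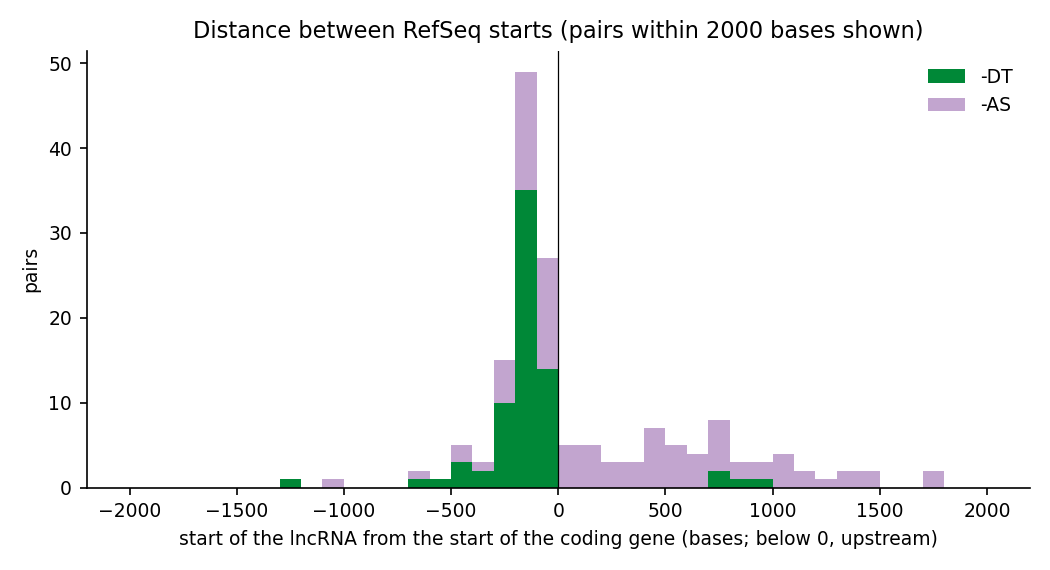
Distance in bases from the RefSeq start of the coding gene to that of the lncRNA (x axis, 0 at the coding start, negative values upstream) against the number of pairs per 100 bases (y axis), with -DT and -AS pairs stacked. The 163 pairs within 2000 bases are shown and 71 lie beyond; most -DT pairs sit just upstream of 0, while -AS pairs also spread downstream.

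The promoter windows of 6 lncRNAs are printed because they are among those named below by the order of their libraries and show both layouts. Each runs from 250 bases before to 50 bases after the RefSeq start (GRCh38.p14), written 5′ to 3′ on the strand of the lncRNA. Capitals mark GGGCGG, the core of the GC box bound by SP1, or CCAAT, the CCAAT box bound by NF-Y, on either strand; TATAAA was searched on both strands too and was in none of the 6. JTB-DT (chr1:153977493-153977792, + strand), CCDC28A-AS1 (chr6:138773654-138773953, − strand), MBTPS1-DT (chr16:84116793-84117092, + strand) and TIAM1-AS1 (chr21:31558983-31559282, + strand) start 69, 66, 101 and 146 bases upstream of the RefSeq start of the coding gene on the other strand, so each of these windows holds both starts. TUBA1B-AS1 (chr12:49131356-49131655, + strand) starts 211 bases upstream of TUBA1B, and its window holds both starts too. NEUROG2-AS1 (chr4:112515129-112515428, + strand) starts 801 bases downstream of the start of NEUROG2, inside that gene. The MBTPS1-DT window held none of the motifs searched and has no capitals.
JTB-DT: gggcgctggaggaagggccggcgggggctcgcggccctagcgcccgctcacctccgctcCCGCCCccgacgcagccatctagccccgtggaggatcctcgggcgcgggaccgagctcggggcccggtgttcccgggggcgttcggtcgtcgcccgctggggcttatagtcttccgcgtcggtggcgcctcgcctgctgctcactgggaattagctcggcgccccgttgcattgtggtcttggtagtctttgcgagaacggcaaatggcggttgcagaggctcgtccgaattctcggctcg
CCDC28A-AS1: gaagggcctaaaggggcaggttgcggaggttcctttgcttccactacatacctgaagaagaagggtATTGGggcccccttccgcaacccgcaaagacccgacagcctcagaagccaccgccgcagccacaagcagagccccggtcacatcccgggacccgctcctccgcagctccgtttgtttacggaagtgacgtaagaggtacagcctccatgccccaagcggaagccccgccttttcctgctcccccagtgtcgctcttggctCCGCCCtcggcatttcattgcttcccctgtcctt
MBTPS1-DT: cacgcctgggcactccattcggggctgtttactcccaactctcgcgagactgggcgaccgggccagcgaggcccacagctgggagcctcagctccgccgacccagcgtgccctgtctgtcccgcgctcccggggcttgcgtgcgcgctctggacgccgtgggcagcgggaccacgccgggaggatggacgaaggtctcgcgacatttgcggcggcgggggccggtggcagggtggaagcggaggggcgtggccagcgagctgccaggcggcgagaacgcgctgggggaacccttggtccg
TIAM1-AS1: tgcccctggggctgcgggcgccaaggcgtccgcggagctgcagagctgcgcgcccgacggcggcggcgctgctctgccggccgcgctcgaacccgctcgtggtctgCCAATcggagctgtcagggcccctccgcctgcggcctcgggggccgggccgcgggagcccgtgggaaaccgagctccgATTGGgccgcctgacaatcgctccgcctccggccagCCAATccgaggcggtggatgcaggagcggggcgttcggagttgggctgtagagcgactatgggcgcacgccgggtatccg
TUBA1B-AS1: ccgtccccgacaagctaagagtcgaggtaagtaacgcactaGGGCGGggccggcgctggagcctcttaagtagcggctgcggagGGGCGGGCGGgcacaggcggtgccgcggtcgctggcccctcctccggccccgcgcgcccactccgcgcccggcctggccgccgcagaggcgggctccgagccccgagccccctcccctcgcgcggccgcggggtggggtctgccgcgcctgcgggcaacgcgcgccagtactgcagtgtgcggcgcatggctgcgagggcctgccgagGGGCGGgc
NEUROG2-AS1: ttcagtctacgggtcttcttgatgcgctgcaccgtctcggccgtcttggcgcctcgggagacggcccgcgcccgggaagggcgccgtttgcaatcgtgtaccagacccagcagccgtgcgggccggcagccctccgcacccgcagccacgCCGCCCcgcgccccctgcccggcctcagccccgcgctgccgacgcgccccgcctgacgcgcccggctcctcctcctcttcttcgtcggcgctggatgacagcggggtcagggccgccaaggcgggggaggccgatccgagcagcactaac

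These windows were rich in CpG, and so were those of the lncRNAs as a group. RefSeq promoters were found for 255 of the 314 lncRNAs. Their median GC content was 67.3%, with 28 CpG per window, against 58.3% and 14 CpG over all 27305 RefSeq promoters and 67.0% and 28 CpG over 270 promoters of the coding genes. GGGCGG was in 69.0% of the lncRNA windows, 44.6% of all promoters and 68.9% of the coding windows. TATAAA was in 2.75%, 12.0% and 7.04%, and CCAAT in 34.9%, 35.7% and 37.0%. A p53 half-site, a single decamer and not a full response element, was in 18 of the 255 lncRNA windows (7.06%). The share was 6.54% of all promoters and 4.44% of the coding windows. Among the lncRNAs it was 9.09% of -AS and 2.53% of -DT windows. Where windows of a pair overlap they share bases, so the lncRNA and coding windows are not separate samples of sequence, and a match of letters is not a bound site.

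The lncRNAs were low. The median of their mean over the 8 fitted libraries was 5.66 CPM, from 2.55 to 65.2 CPM, with 137 below 5 CPM and 30 above 20 CPM. Antisense and divergent names differed little in level, with medians of 5.81 and 5.10 CPM. Per kb of exon length, the median was 1.17 CPM per kb for the lncRNAs and 4.19 CPM per kb for the coding genes. The length in the table sums all annotated exons and overstates the length of a single transcript. The sources used here do not say whether reads cover whole transcripts, and levels per kb compare genes only if they do. On that scale 93 of 309 lncRNAs stood above their coding gene, 33 of 146 in divergent pairs and 59 of 162 in overlapping pairs. In CPM without division by length it was 71 of 309, with 15 of 146 in divergent pairs and 55 of 162 in overlapping pairs. The coding genes of overlapping pairs were lower, at a median of 2.97 CPM per kb against 5.16 CPM per kb in divergent pairs, and 23 of the overlapping coding genes were under 1 CPM. Across the 306 pairs with a coding gene above 0, the levels per kb of lncRNA and coding gene had a Pearson's r of 0.099 on the log2 scale and a Spearman's rho of 0.086, as a description across genes that share libraries.

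The 8 most abundant lncRNAs were all -AS genes, and by the coordinates of the table all lay in overlapping antisense pairs. By RefSeq starts, however, TRIM52-AS1 starts 69 bases upstream (−69) of TRIM52 on the other strand, which is a divergent layout. OIP5-AS1, a conserved lncRNA also known as cyrano, was at 73.9 and 65.2 CPM in WT, 65.3, 60.6 and 68.1 CPM in G245S and 63.7, 60.9 and 64.2 CPM in R273H. Its coding gene OIP5, a centromere factor, stood higher per kb, at 22.5 CPM per kb against 2.92 CPM per kb. VPS9D1-AS1 was at 59.2 and 61.8 CPM in WT, 67.0, 65.1 and 64.8 CPM in G245S and 56.6, 51.2 and 68.3 CPM in R273H. In this pair the lncRNA was the higher per kb, with 35.2 CPM per kb against 0.612 CPM per kb of VPS9D1. For OIP5-AS1 the R273H libraries lay just below WT and those of G245S overlapped it, and for VPS9D1-AS1 the G245S libraries lay just above WT and those of R273H spanned it. Neither passed the test in either mutant (edgeR quasi-likelihood test, adjusted by Benjamini-Hochberg, adjusted p between 0.831 and 0.997).

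TRIM52-AS1 had a mean of 51.1 CPM and PINK1-AS of 45.4 CPM. PINK1 encodes the kinase that marks damaged mitochondria, and the lncRNA and the mRNA were close per kb, at 10.2 and 8.71 CPM per kb. SLC16A1-AS1, at a mean of 44.6 CPM, lies opposite the gene of the lactate transporter MCT1, which was far higher per kb (40.0 against 2.69 CPM per kb). FGD5-AS1 had a mean of 44.6 CPM, while FGD5, an exchange factor for CDC42 known from endothelial cells, was between 0.115 and 0.819 CPM in the fitted libraries. NUTM2A-AS1, at 37.0 CPM, likewise faced a coding gene at no more than 0.358 CPM. ZSCAN16-AS1 (mean 37.8 CPM) and its zinc finger gene ZSCAN16 were level per kb, at 2.75 and 2.61 CPM per kb. Per kb the order of the lncRNAs changed, with PITPNA-AS1 first at 41.0 CPM per kb.

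Counts were strand-specific, and some exon-sharing pairs had very unequal levels. RPL30-AS1 shares 871 exonic bases with RPL30, a ribosomal protein gene, and had 3.63 CPM against 1475 CPM, 0.246% of it. TUBA1B-AS1 had 0.262% of the level of TUBA1B with 1614 shared bases, and SLC25A5-AS1 had 0.363% of that of SLC25A5. The share of reads of such abundant genes that is counted on the wrong strand was not measured. In WT replicate 3, RPL30-AS1 was at 18.3 CPM and TUBA1B-AS1 at 21.8 CPM, above every fitted library (at most 5.35 and 10.3 CPM).

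Levels were steady across libraries for most. The highest of the 8 fitted libraries was at a median 1.58 times the lowest, and 4 lncRNAs exceeded 4 times: DIO2-AS1, VIM-AS1, NEUROG2-AS1 and SLC25A30-AS1.

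**Figure D2:**
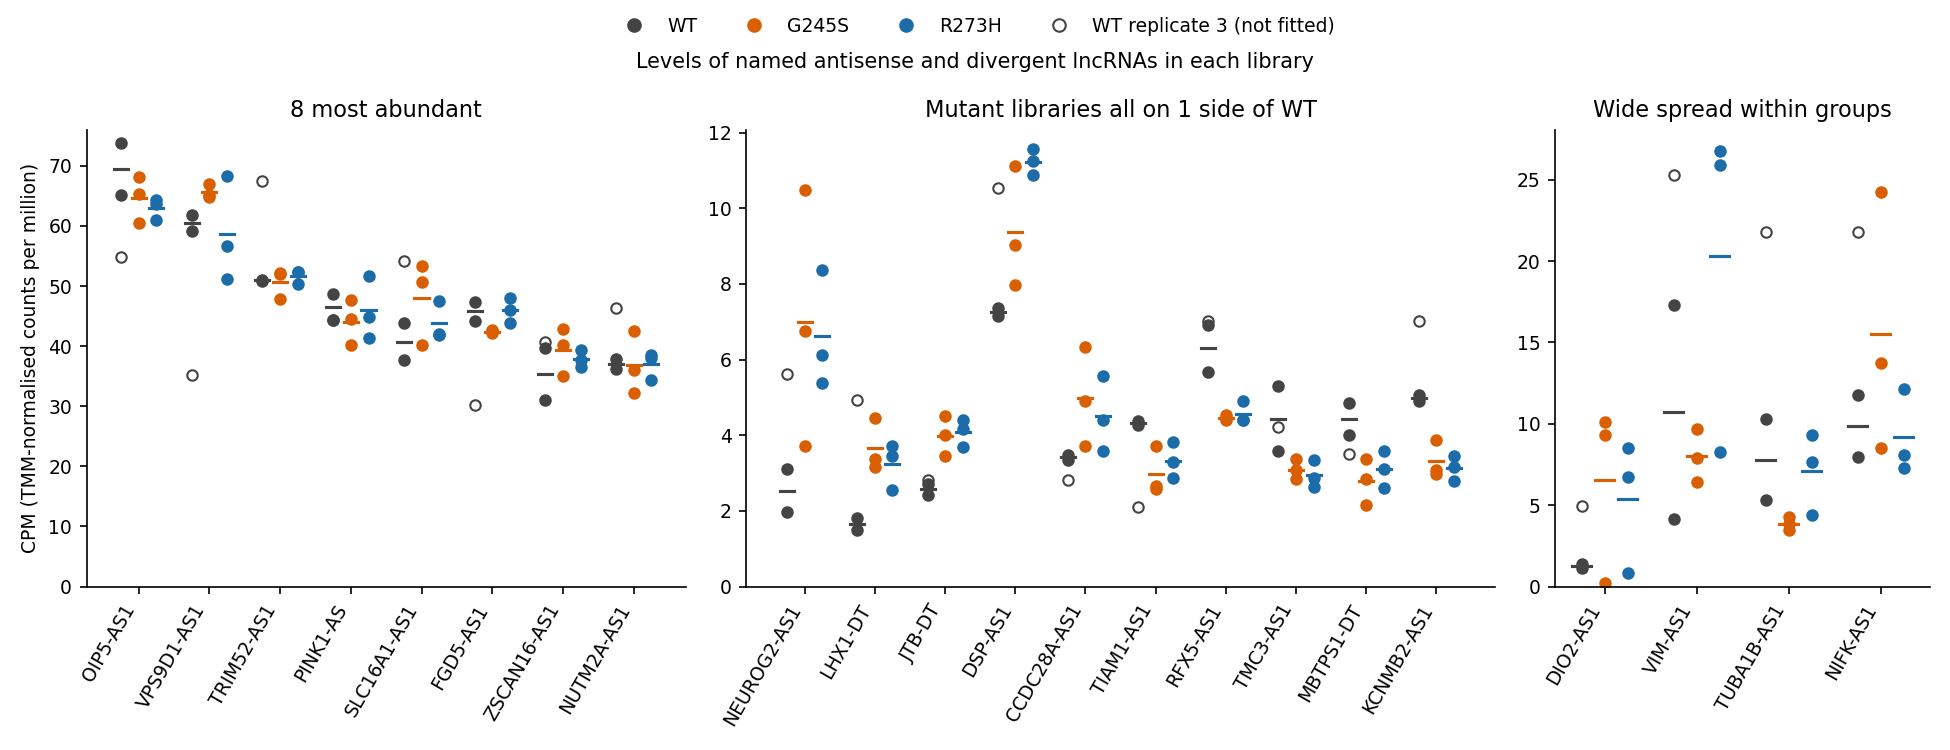
CPM (y axes, linear, from 0) of named lncRNAs in each library, with WT, G245S and R273H side by side, a bar at the mean of the fitted libraries and an open circle for WT replicate 3, which was not fitted. The 8 most abundant lncRNAs vary little, those in the middle panel have all 6 mutant libraries on 1 side of both WT libraries, and those on the right vary widely within a group.

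No antisense or divergent lncRNA passed an adjusted p of 0.05 in G245S against WT with edgeR's quasi-likelihood test: 0 of 314, where 20 of 15893 genes did (0.126%). In R273H against WT the count was 0 of 314, where 22 of 16022 genes did (0.137%), and in R273H against G245S it was 0 of 314, with 0 of 15614 genes (0%). DESeq2 also called 0 in each comparison. At an unadjusted p below 0.05, 25 lncRNAs (7.96%) were found in G245S against 6.66% of all genes tested, 25 (7.96%) in R273H against 6.11%, and 22 (7.01%) between the mutants against 4.75%. With DESeq2, 6, 4 and 4 lncRNAs had an unadjusted p below 0.05. The share of all genes was not counted with DESeq2, so these counts have no background beside them. The smallest adjusted p of a lncRNA was 0.313 in G245S, 0.0796 in R273H and 0.921 between the mutants, all from edgeR's quasi-likelihood test. In bulk RNA, fewer cells with a transcript and less of it per cell cannot be told apart.

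Counts of groups that do not overlap were near the background as well. In G245S, every library was higher than both WT libraries for 30 lncRNAs (9.55%, against 11.3% of all genes) and lower for 40 (12.7%, against 10.8%). In R273H it was higher for 41 (13.1%, against 10.3%) and lower for 39 (12.4%, against 10.4%). R273H lay above G245S in every library for 18 (5.73%, against 4.67%) and below for 14 (4.46%, against 4.35%). All 6 mutant libraries were higher than both WT libraries for 15 lncRNAs (4.78%, against 4.21% of 15638 genes) and lower for 12 (3.82%, against 4.78%).

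The median log2 fold change of the 314 was 0.037 in G245S, 0.011 in R273H and −0.0073 between the mutants, where that of all genes was 0.0034, 0.0023 and −0.0048. Of the 314, 177 were higher and 137 lower in G245S, and 166 were higher and 148 lower in R273H. With all 3 WT libraries the sign of these medians turned, to −0.018 in G245S and −0.028 in R273H. WT replicate 3 itself had a median over the lncRNAs of 0.13 (log2) relative to both fitted WT libraries, against −0.039 over all genes. Other lncRNA classes with the same minimum had medians of 0.030 and −0.038 (129 LINC, SNHG and MIR genes) and 0.058 and 0.016 (572 lncRNAs without a symbol) in G245S and R273H.

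The median standard error of a log2 fold change was 0.214 in G245S and 0.209 in R273H, against 0.138 and 0.136 over all genes tested. The 95% confidence interval of the difference lay within 2-fold either way for 279 of the 314 lncRNAs in G245S, 289 in R273H and 301 between the mutants. For the others, a change of more than 2-fold lay inside the interval. A log2 fold change beyond 1 in either direction was fitted for 4, 2 and 1 lncRNAs. Over all genes tested, the interval lay within 2-fold for 13672 of 15893, 14015 of 16022 and 14405 of 15614. Of all genes, 138, 95 and 74 had a log2 fold change beyond 1.

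**Figure D3:**
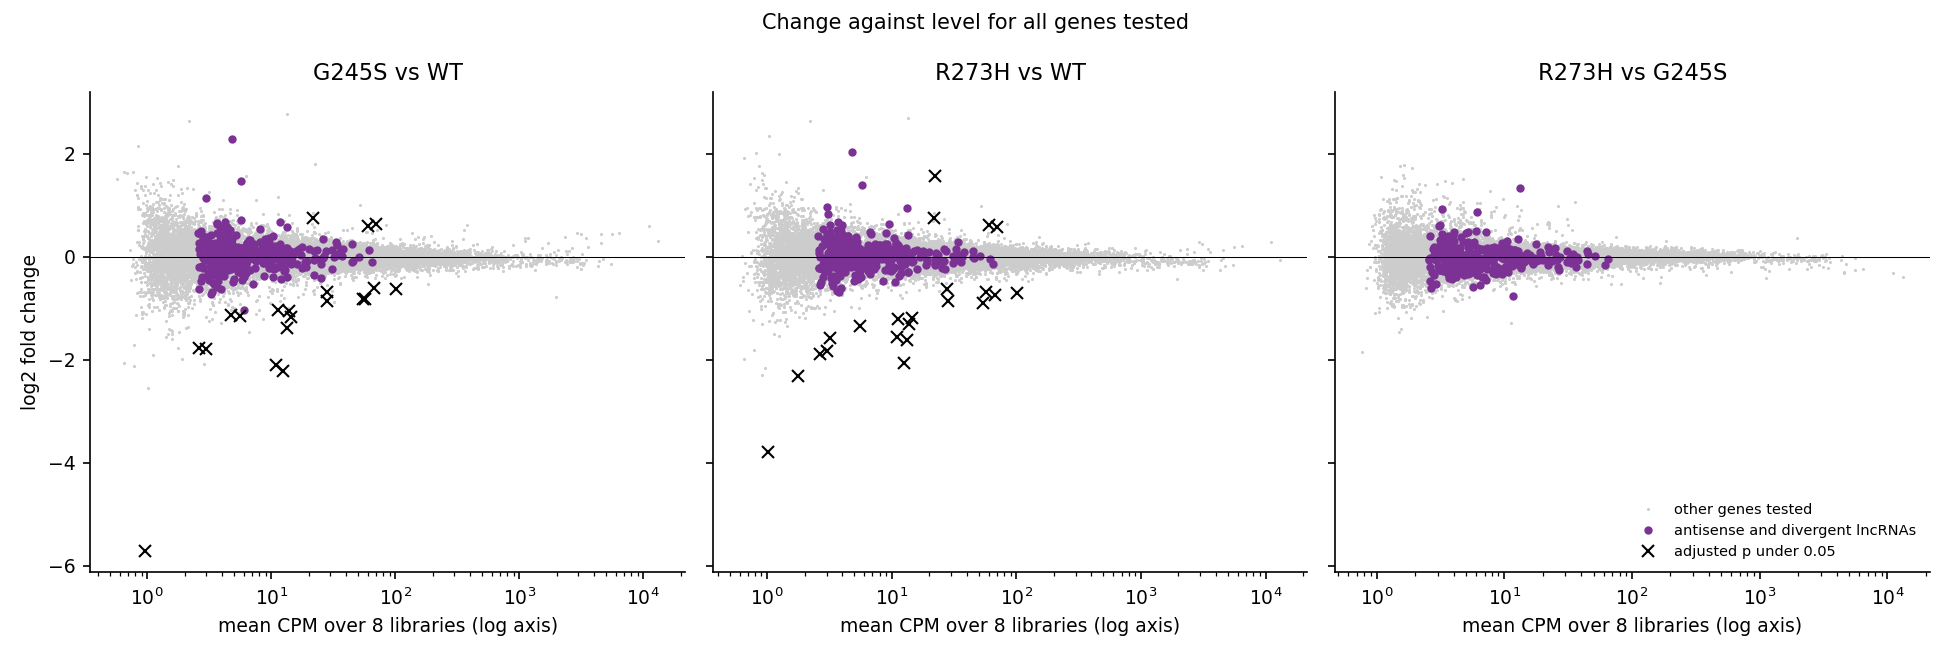
Log2 fold change (y axis) against mean CPM over the 8 fitted libraries (x axis, log scale) for every gene tested in each comparison, with antisense and divergent lncRNAs in purple and genes past an adjusted p of 0.05 as crosses. The lncRNAs lie between 2.55 and 65.2 CPM, centred on 0, and none carries a cross.

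Among lncRNAs with all 6 mutant libraries on 1 side of WT, NEUROG2-AS1 (GRCh38 chr4:112514291-112603529, + strand) had the highest mean of both log2 fold changes. It lies opposite NEUROG2, a gene of neuronal fate, and shares 842 exonic bases with it. NEUROG2-AS1 was at 1.96 and 3.10 CPM in WT, 6.76, 10.5 and 3.71 CPM in G245S and 6.14, 8.37 and 5.37 CPM in R273H. Every mutant library was above both WT libraries, and WT replicate 3, at 5.62 CPM, was among the mutant values. In G245S the fitted log2 difference was 1.47 (standard error 0.381, edgeR's adjusted p = 0.322) and in R273H 1.39 (standard error 0.274, edgeR's adjusted p = 0.0796). Without R273H replicate 3 the adjusted p of edgeR in R273H was 0.0345. Once WT replicate 3 was added, these became 1.29 and 1.21 (edgeR's adjusted p = 0.640 and 0.457). NEUROG2 itself was at no more than 1.39 CPM and was not tested.

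LHX1-DT starts 115 bases upstream of LHX1, a LIM homeobox gene of kidney development. It was at 1.50 and 1.81 CPM in WT, 3.17, 3.37 and 4.45 CPM in G245S and 2.55, 3.71 and 3.46 CPM in R273H, with 4.92 CPM in WT replicate 3. The log2 fold changes were 1.15 and 0.96 (edgeR's adjusted p = 0.370 and 0.583). LHX1 had 0.29 and 0.33, with 5.31 and 8.78 CPM in WT and between 7.41 and 10.0 CPM in the mutant libraries, so the groups of the coding gene overlapped.

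JTB-DT, whose window is printed above, was at 2.42 and 2.71 CPM in WT, 4.50, 4.01 and 3.46 CPM in G245S and 4.17, 4.39 and 3.70 CPM in R273H. WT replicate 3 was at 2.81 CPM, on the WT side but near its floor of 2.11 CPM. Its log2 fold changes were 0.65 in G245S and 0.67 in R273H (edgeR's adjusted p = 0.684 and 0.716), where JTB, a membrane protein gene at 243 to 299 CPM, had 0.06 and 0.15.

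DSP-AS1 starts inside DSP, the gene of the desmosomal protein desmoplakin. It was at 7.16 and 7.36 CPM in WT, 7.98, 11.1 and 9.03 CPM in G245S and 10.9, 11.3 and 11.6 CPM in R273H. The 3 R273H libraries lay close together and above WT, but WT replicate 3 was at 10.5 CPM. For G245S the log2 fold change was 0.37 (edgeR's adjusted p = 0.768) and for R273H 0.63 (standard error 0.151, edgeR's adjusted p = 0.24), and DSP had −0.10 and −0.04. CCDC28A-AS1 was the other lncRNA of the 5 highest, at 3.35 and 3.48 CPM in WT and 3.58 to 6.35 CPM in the mutant libraries, with log2 fold changes of 0.57 and 0.41 against 0.12 and 0.13 of CCDC28A. These were 0.34 without G245S replicate 1 and 0.22 without R273H replicate 1. CCDC28A-AS1 was at 2.81 CPM in WT replicate 3, near the floor of that library.

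At the lower end, KCNMB2-AS1 overlaps the gene of a regulatory subunit of the BK potassium channel. It was at 5.08 and 4.90 CPM in WT, 3.07, 3.88 and 2.97 CPM in G245S and 2.78, 3.16 and 3.46 CPM in R273H. All 6 mutant libraries were below WT, and WT replicate 3 was at 7.03 CPM. The log2 fold changes were −0.59 and −0.67 (edgeR's adjusted p = 0.684 and 0.632), and KCNMB2 was at no more than 0.129 CPM and was not tested.

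MBTPS1-DT is divergent from MBTPS1, which encodes the site-1 protease that cleaves SREBP. It was at 4.85 and 4.0 CPM in WT, 2.15, 3.37 and 2.84 CPM in G245S and 3.59, 2.61 and 3.10 CPM in R273H, and its log2 fold changes were −0.68 and −0.50. WT replicate 3 was at 3.51 CPM, inside the R273H range. MBTPS1 had −0.12 and −0.13.

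RFX5-AS1, named for a factor of MHC class II promoters, was at 6.92 and 5.68 CPM in WT and 4.39 to 4.90 CPM in the mutant libraries, with log2 fold changes of −0.50 and −0.47 (the second −0.31 without WT replicate 1). TMC3-AS1 was at 3.58 and 5.29 CPM in WT and 2.63 to 3.37 CPM in the mutants (−0.50 and −0.57; −0.21 and −0.27 without WT replicate 2, and −0.76 in G245S without WT replicate 1), and its coding gene TMC3 had 0 counts in every library. TIAM1-AS1, divergent from the gene of a RAC1 exchange factor, was at 4.39 and 4.26 CPM in WT and 2.59 to 3.82 CPM in the mutants (−0.53 and −0.37), with TIAM1 at −0.19 and −0.24. WT replicate 3 was at 7.03 CPM of RFX5-AS1, 4.22 CPM of TMC3-AS1 and 2.11 CPM of TIAM1-AS1. The last value was below all 6 mutant libraries but is at the floor of 3 counts of WT replicate 3. None of the 10 lncRNAs named for all 6 mutant libraries passed the adjusted test, and each was named for the order of its libraries, which is therefore a description.

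Between the mutants, the groups did not overlap for 32 lncRNAs, and the named ones at either end were low. TUBA1B-AS1 starts upstream of TUBA1B, the gene of an abundant alpha-tubulin. It was at 10.3 and 5.29 CPM in WT, 3.48, 4.27 and 3.83 CPM in G245S and 7.64, 9.33 and 4.42 CPM in R273H. G245S was the lowest group, and WT and R273H overlapped. Against WT, G245S had a log2 fold change of −1.02 (standard error 0.263, edgeR's adjusted p = 0.314) and R273H against G245S one of 0.87 (edgeR's adjusted p = 0.921). Without WT replicate 2 the first was −1.41 with an adjusted p of 0.033 from edgeR, where the lone WT library is assumed to vary like the G245S libraries, and without WT replicate 1 it was −0.45 with an adjusted p of 0.848 from edgeR. TUBA1B lay between 2010 and 2570 CPM with log2 fold changes of −0.10 in both mutants.

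B4GAT1-DT was at 2.25, 2.72 and 1.48 CPM in G245S and 3.47, 4.67 and 4.30 CPM in R273H (log2 fold change 0.93), with 4.50 and 2.58 CPM in WT. TBX2-AS1, opposite a T-box factor gene, was at 3.99, 5.44 and 5.32 CPM in G245S and 7.87, 6.31 and 6.57 CPM in R273H (0.50). R273H was lower than G245S for CEBPA-DT (−0.52), LCMT1-AS1 (−0.46) and CKMT2-AS1 (−0.44). CEBPA, a factor of myeloid and fat cell differentiation, was between 15.7 and 17.1 CPM in all 8 fitted libraries, while CEBPA-DT was at 3.38, 3.62 and 3.21 CPM in G245S and 2.55, 1.92 and 2.63 CPM in R273H. CKMT2, a muscle creatine kinase gene, had 0 counts in every library, and CKMT2-AS1 was at 9.83, 7.64 and 7.17 CPM in G245S and 6.25, 6.04 and 6.09 CPM in R273H. The adjusted p of edgeR for these 5 lay between 0.921 and 0.994.

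A few lncRNAs, named after their values were seen, varied widely within a group. DIO2-AS1, opposite the gene of the deiodinase that activates thyroid hormone, was at 1.39 and 1.16 CPM in WT, 0.205, 9.32 and 10.1 CPM in G245S and 6.71, 8.51 and 0.836 CPM in R273H. G245S replicate 1 and R273H replicate 3 were below WT, and the other 4 mutant libraries were several times above it. The log2 fold changes of 2.29 (standard error 0.864) and 2.03 (standard error 0.649) had adjusted p of 0.667 and 0.564 in edgeR. Without G245S replicate 1 the first was 2.92 with edgeR's adjusted p = 0.000247, and without R273H replicate 3 the second was 2.55 with edgeR's adjusted p = 0.000783. DIO2 was between 0.716 and 3.10 CPM in the fitted libraries and was highest in WT replicate 2. In WT replicate 3, DIO2-AS1 was at 4.92 CPM.

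VIM-AS1 starts inside VIM, the gene of the intermediate filament vimentin. It was at 4.16 and 17.3 CPM in WT, 6.45, 9.71 and 7.91 CPM in G245S and 25.9, 26.8 and 8.24 CPM in R273H. WT replicate 2 and R273H replicates 1 and 2 were high, and the others were at or below 9.71 CPM. Between R273H and G245S the log2 fold change was 1.34 (standard error 0.318, edgeR's adjusted p = 0.921), and 1.72 with edgeR's adjusted p = 0.000502 without R273H replicate 3. VIM itself was at 465 to 585 CPM with a log2 fold change of −0.19 in each mutant. Beside it, the fibroblast gene COL1A2 was at 15.7 and 28.1 CPM in WT, 9.11, 27.1 and 19.4 CPM in G245S and 37.6, 50.6 and 21.4 CPM in R273H, also highest in R273H replicates 1 and 2. Of the 7 fibroblast markers, DCN was at no more than 0.274 CPM and LUM at no more than 2.78 CPM in the fitted libraries. COL1A1 (12.7 to 37.1 CPM), COL3A1 (4.71 to 27.7 CPM), PDGFRA (0.462 to 7.14 CPM) and PDGFRB (0.231 to 1.1 CPM) were, like COL1A2, highest in R273H replicate 2. The part of these genes in the result was not tested. In WT replicate 3, VIM-AS1 was at 25.3 CPM and COL1A2 at 54.8 CPM. Against WT, R273H had a log2 fold change of VIM-AS1 of 0.95, which was 0.23 without WT replicate 1 and 2.28 without WT replicate 2. NIFK-AS1 was at 7.96 and 11.7 CPM in WT, 13.7, 8.54 and 24.2 CPM in G245S and 12.2, 8.10 and 7.28 CPM in R273H, with 21.8 CPM in WT replicate 3, while NIFK, a nucleolar protein gene, lay between 109 and 130 CPM.

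Agreement with the coding gene was weak. Both genes of a pair were tested for 282 pairs in G245S, and their log2 fold changes had the same sign in 148 (52.5%). In R273H it was 147 of 283 (51.9%), and between the mutants 136 of 283 (48.1%). Pearson's r across pairs was 0.021, 0.096 and −0.042, as descriptions over genes measured in the same libraries. Spearman's rho in G245S was 0.15 and in R273H 0.062. The values depended on the pairs taken: over 50 pairs whose spans do not overlap, r was 0.21 in G245S and −0.034 in R273H, and over lncRNAs with a sum of at least 360 counts it was 0.070 and −0.11. No coding gene of a pair passed an adjusted p of 0.05 in any comparison by edgeR, while 12 (4.26%), 14 (4.95%) and 15 (5.30%) had an unadjusted p below 0.05, against 6.66%, 6.11% and 4.75% of all genes tested.

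Divergent pairs, which start side by side, had the same sign in 80 of 145 in G245S (55.2%, r = 0.22) and 77 of 145 in R273H (53.1%, r = 0.13). Overlapping antisense pairs had it in 68 of 137 (49.6%, r = −0.12) and 70 of 138 (50.7%, r = 0.066). Between the mutants, divergent pairs had it in 65 of 145 (44.8%, r = −0.037). The difference between pair types was not tested. The coding genes moved less, with a median absolute log2 fold change of 0.084 in G245S and 0.082 in R273H, against 0.16 and 0.14 for their lncRNAs, whose standard errors were larger. The pair with the most distant coding value in R273H among divergent ones was TFPI2-DT, named after its values were seen. TFPI2, a protease inhibitor gene, was at 3.00 and 3.10 CPM in WT and 3.71 to 6.59 CPM in the mutant libraries, with a log2 fold change of 0.89 in R273H (edgeR's adjusted p = 0.339). TFPI2-DT, which starts 71 bases away, was at 2.89 and 4.13 CPM in WT and 2.07 to 3.07 CPM in the mutants, and had −0.49 in R273H (edgeR's adjusted p = 0.914), or −0.22 without WT replicate 2.

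**Figure D4:**
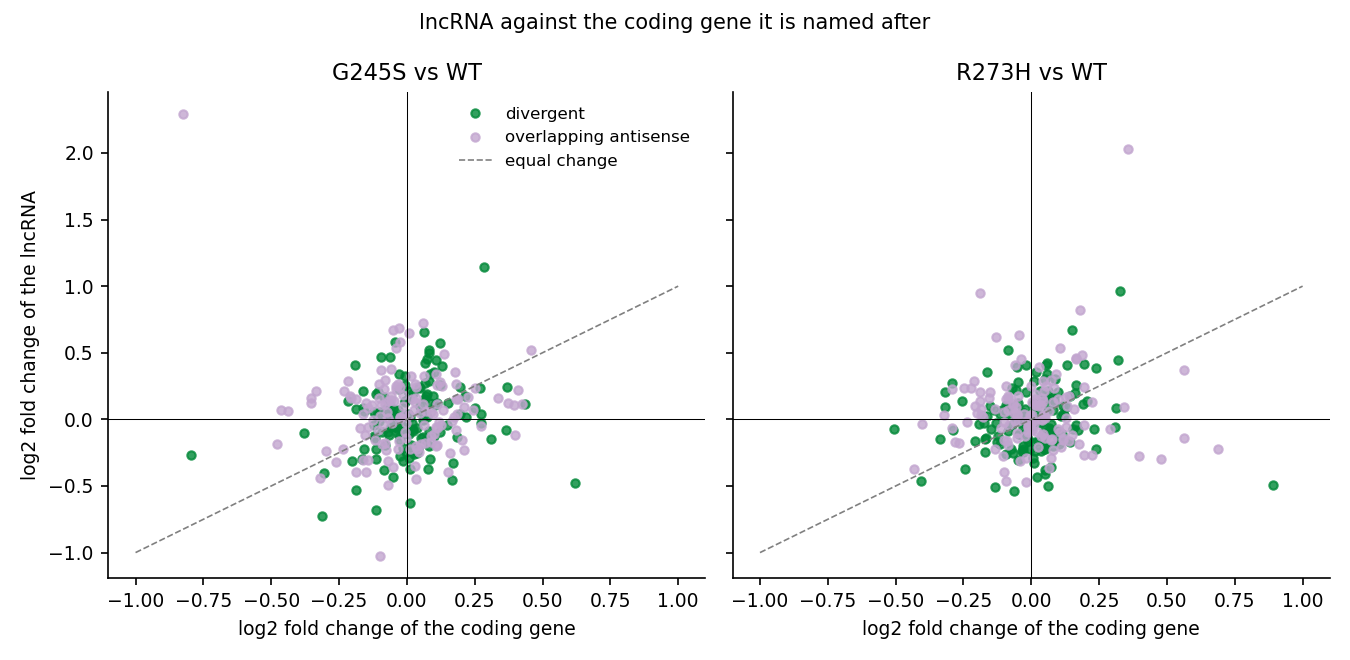
Log2 fold change of each lncRNA (y axis) against that of the coding gene it is named after (x axis) in G245S and R273H compared with WT, coloured by position, with a dashed line where both would be equal. Points scatter around 0 in all 4 quadrants, and the same sign was seen in 148 of 282 and 147 of 283 pairs.

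The coding genes were grouped into lists by symbol, without a check of the role of each. Lists of zinc finger, developmental, mitochondrial and RNA processing genes used the first letters of the symbol. The letters PAX thus also took in PAXIP1-DT. No list of lncRNAs stood out by an adjusted p, with 0 members past 0.05 in each of the lists and comparisons. None of the 314 was named for a gene on the list of p53 targets. The 15 lncRNAs of the homeobox and development list had medians of 0.017 (G245S) and 0.20 (R273H) on the log2 scale. Of these, 2 and 5 had an unadjusted p below 0.05, where 6.66% and 6.11% of all genes had one. Between the mutants the median was 0.12, and 4 had an unadjusted p below 0.05 in edgeR, where 4.75% of all genes had one. The 5 of R273H against WT were LHX1-DT, FOXP4-AS1, DLX6-AS1 and GATA2-AS1, which were higher, and HOXC-AS1, which was lower. FOXP4-AS1 was at 2.19 and 2.32 CPM in WT, 1.74, 3.62 and 2.72 CPM in G245S and 3.36, 4.25 and 4.42 CPM in R273H (0.82, edgeR's adjusted p = 0.575). HOXC-AS1 was at 6.23 and 3.61 CPM in WT and 2.66 to 3.34 CPM in R273H (−0.68, edgeR's adjusted p = 0.740), or −0.22 without WT replicate 1. HOXA11-AS, the highest of the list at a mean of 11.9 CPM, had a log2 fold change of −0.06 in both mutants, which turned above 0 without G245S replicate 1 (0.010) or R273H replicate 3 (0.015).

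The 21 lncRNAs of zinc finger genes had medians of 0.084 and −0.032, with 1 at an unadjusted p below 0.05 in each mutant. The 6 of cell cycle genes, among them CDKN2B-AS1 (ANRIL) and OIP5-AS1, had −0.038 and −0.14. CDKN2B-AS1 was at 7.96 and 9.68 CPM in WT and 8.15 to 10.7 CPM in the mutant libraries, so its groups overlapped. The 8 on the list of mitochondrial proteins had −0.11 and −0.054, and the 7 on the RNA processing list 0.020 and 0.037. Of either list, 0 had an unadjusted p below 0.05 in the mutants. Between the mutants, 1 of the 6 cell cycle lncRNAs had an unadjusted p below 0.05 in edgeR, against 4.75% of all genes tested. For the zinc finger, mitochondrial and RNA processing lists it was 0.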

How the data were processed

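The data are 9 RNA-seq libraries of HEK293T cells stably expressing WT, G245S or R273H p53. The authors filtered reads with FastP 0.24.0, aligned them with STAR 2.7.11, removed duplicates by molecular identifier and counted reads per gene strand-specifically with featureCounts (Subread 2.1.1), sharing multi-mapping reads as fractions. The authors deposited expected counts, not normalized, which were rounded here to whole counts, and the deposited gene length in bases was used for values per kb. Another 9 columns of per-sample CPM were not used.

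Each comparison was fitted on its own groups with filterByExpr, TMM and the quasi-likelihood test of edgeR 4.0.16 (R 4.3.3, limma 3.58.1), with Benjamini-Hochberg adjustment over all genes tested and a threshold of 0.05. WT replicate 3 was left out for a total below 4096044 counts, which is 0.5 times the median total over the other 8 libraries. p-values measure the spread between these cultures. The sources do not say whether the replicates came from separate infections, so the form of p53 and the infected line cannot be told apart. The pipeline was tested on simulated data. DESeq2 1.42.0, Python 3.11.15, pandas 2.3.3, numpy 2.4.6 and matplotlib 3.10.9 were also used. Of the 314 lncRNAs, 313 were found in GENCODE release 44, on the same chromosome and strand.

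The lncRNAs and gene lists were chosen with earlier results of these data known. Named are the 8 most abundant, the 5 highest and 5 lowest by mean log2 fold change with all 6 mutant libraries on 1 side of the fitted WT libraries, and the 3 highest and 3 lowest between the mutants with groups that do not overlap; lncRNAs past the threshold and those of p53 targets would have been named too, but there were 0. Other names were chosen after their values were seen. Alternatives covered the WT libraries, each replicate left out, scaling, filters, rounding, DESeq2, 1 fit of all groups, the replicate number and the minimum sum. A result set out in the plan (1 gene) is not reported here.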

Additional observations from a re-analysis of the deposited data

How the results depend on the processing

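The number of lncRNAs called stayed at 0 under DESeq2, other scalings, the stricter filter, unrounded counts, 1 fit of all groups and with all 3 WT libraries or any pair of them, and was 5, 3 and 3 (G245S, R273H and between the mutants) with no filter on low counts. These were DIO2-AS1, LHX1-DT, NEUROG2-AS1, NIFK-AS1 and TUBA1B-AS1 in G245S, DIO2-AS1, NEUROG2-AS1 and VIM-AS1 in R273H, and NIFK-AS1, TUBA1B-AS1 and VIM-AS1 between the mutants; the cause was not tested. Leaving out 1 replicate gave 0 to 1 (TUBA1B-AS1 without WT replicate 2, DIO2-AS1 without G245S replicate 1), 0 to 2 (DIO2-AS1 and NEUROG2-AS1 without R273H replicate 3) and 0 to 1 (VIM-AS1 without R273H replicate 3). With a replicate block the counts were 3, 3 and 2, and those of all genes 76, 47 and 59. The lncRNAs were DIO2-AS1 and NEUROG2-AS1 in both mutants, TUBA1B-AS1 in G245S and between the mutants, and VIM-AS1 in R273H and between the mutants. NEUROG2-AS1 had edgeR's adjusted p of 7.43e-07 in G245S and 0.000347 in R273H. Whether the replicate numbers pair the libraries was not settled. Between the mutants, deviations from group means correlated at 0.139, 0.279 and −0.0286 for the same number, and from −0.271 to 0.173 for different numbers. Between WT and a mutant it was −0.15 to 0.0335 and −0.178 to 0.178. The 2 fitted WT libraries mirror each other in these deviations.

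All genes called, 20 in G245S, were 10 with all 3 WT libraries, 3 with WT replicates 1 and 3, 144 with no filter, and 10 to 30 without 1 replicate. In R273H, 22 became 13 with WT replicates 2 and 3, 4 with replicates 1 and 3, 93 with no filter, and 16 to 29 without 1 replicate. Between the mutants, 0 became 1 with DESeq2, 125 with no filter, and 0 to 3 without 1 replicate.

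The median log2 fold change of the lncRNAs in G245S was −0.018 with all 3 WT libraries, −0.044 with replicates 1 and 3, −0.040 with 2 and 3, and 0.0018 to 0.052 without 1 replicate. In R273H it was −0.028, −0.048 and −0.078 for the same choices, 0.035 with library size only and −0.0098 to 0.0107 without 1 replicate, and between the mutants 0.017 with library size only and −0.021 to 0.0062 without 1 replicate. Pairs with the same sign numbered 144 to 156 in G245S and 136 to 147 in R273H without 1 replicate. A minimum sum of 90 would leave 476 lncRNAs and one of 360 would leave 167. Log2 fold changes were recomputed for the lncRNAs named by the order of their libraries and for DIO2-AS1, VIM-AS1, NIFK-AS1, TFPI2-DT, FOXP4-AS1, HOXC-AS1 and HOXA11-AS. The sign turned for HOXA11-AS alone: with WT replicates 1 and 3 it was 0.051 in G245S and 0.048 in R273H, with the replicate block 0.016 in R273H, and without 1 replicate between −0.117 and 0.010 in G245S and between −0.120 and 0.015 in R273H. CKMT2-AS1 between the mutants was −0.27 without G245S replicate 1, NIFK-AS1 −0.30 without G245S replicate 3, and DSP-AS1 in G245S 0.23 without G245S replicate 2. With 2 WT libraries and a median level of 5.66 CPM, the median standard errors of 0.214 and 0.209 limit which changes could be called.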
